A study of Mus musculus with 8 samples.

Results

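The ATF4-CHOP stress response core is a set of 10 genes at the centre of the integrated stress response, read here in a mouse adrenocortical tumour cell line treated with the kinase inhibitor BIO. The 10 genes were taken by name from the gene symbols of the authors' deposited table: Atf4, Atf5, Atf3, Ddit3, Cebpg, Nupr1, Ppp1r15a, Trib3, Sesn2 and Eif4ebp1. The choice was made with earlier results of these data known. All 10 were found among the 20719 genes measured, each with 1 probe set. The treated group was ATCL7 cells given 0.5 µM BIO (6-Bromoindirubin-3'-oxime, an inhibitor of glycogen synthase kinase 3) for 24 h, and the comparison group was ATCL7 cells given 0.01% DMSO as vehicle for 24 h. Each group had 4 samples of 250000 cells, which the titles number as pairs 1 to 4, and 1 Affymetrix Mouse Gene ST array was used per sample. Both groups were the same immortalized line, labelled as male, kept during treatment in low-serum medium with 0.025% each of 2 sera, so that 1 line stands for the tissue. Values are log2 expression estimates made by the authors, and 1 unit is a doubling. Whether the pairs came from separate cultures is not stated in the labels. The p-values therefore describe the spread among these particular samples, part of which may be technical.

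The integrated stress response begins with kinases that phosphorylate the translation initiation factor eIF2, each sensing a different stress: PERK for unfolded protein in the endoplasmic reticulum, GCN2 for amino acid shortage, PKR for double-stranded RNA and HRI for haem shortage and mitochondrial stress. Phosphorylated eIF2 lowers protein synthesis in general but favours translation of a few messengers with short upstream reading frames, among them those of ATF4, ATF5, CHOP (the product of Ddit3) and GADD34 (the product of Ppp1r15a). ATF4 then binds composite sites with a C/EBP-family partner and switches on genes of amino acid supply, further transcription factors and brakes on growth. RNA levels show only the transcript side of this response, and neither eIF2 phosphorylation nor ATF4 protein was measured.

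Promoter sequence was examined because the 10 genes include the regulators of this response and several of their known targets. RefSeq promoter windows of assembly GRCm38.p6, from 250 bases before to 50 bases after the start site, were matched for 9 of the 10 genes (10 windows, since Atf5 had a pair of start sites), and Eif4ebp1 was without a match. Windows were searched on both strands for the C/EBP-ATF response element (TGATGNAA), to which ATF4 dimers bind, and for the cAMP response element (TGACGTCA), a site for factors of the ATF and CREB kind. The C/EBP-ATF element was found in the windows of Atf3, Nupr1 and Trib3, 3 of the 10 windows, against 3.97% of all 32851 promoter windows. In Atf3 and in Nupr1 its first base lay 110 bases before the start site, in both as TTGCATCA, which is the element read on the other strand, and in Trib3 it began 15 bases into the transcript as TTACATCA. The cAMP element was found in 1 window, that of Ppp1r15a, against 1.79% of all windows. The 150 bases before the start site are shown for the 3 genes with an upstream match, with the match in capitals, and for Ddit3, which gives the response its name and had no match in its window. They lie at chr1:191183334-191183483 (minus strand) for Atf3, chr7:126625471-126625620 (minus strand) for Nupr1, chr7:45526269-45526418 (minus strand) for Ppp1r15a and chr10:127290643-127290792 (plus strand) for Ddit3, each written 5′ to 3′ along the gene.
Atf3: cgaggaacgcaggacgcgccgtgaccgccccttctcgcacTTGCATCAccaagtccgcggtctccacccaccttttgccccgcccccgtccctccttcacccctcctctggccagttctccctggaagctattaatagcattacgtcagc
Nupr1: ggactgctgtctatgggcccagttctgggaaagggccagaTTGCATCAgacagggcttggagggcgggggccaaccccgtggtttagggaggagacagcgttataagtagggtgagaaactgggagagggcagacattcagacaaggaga
Ppp1r15a: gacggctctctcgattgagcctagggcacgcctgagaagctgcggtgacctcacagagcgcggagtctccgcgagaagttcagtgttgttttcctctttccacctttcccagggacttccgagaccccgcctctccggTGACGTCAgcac
Ddit3: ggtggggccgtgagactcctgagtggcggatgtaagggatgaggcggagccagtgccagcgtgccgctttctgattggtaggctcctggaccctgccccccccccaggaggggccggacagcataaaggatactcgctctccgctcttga
A match is a description of letters and not evidence of a bound site.

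All 10 genes rose with BIO. The log2 changes ran from 0.28 for Eif4ebp1 to 2.24 for Trib3, with a median of 0.94, against a median of -0.01 over all genes. A gene was taken to have changed when its adjusted p was below 0.05 in a limma fit that held the pair as a block, adjusted by Benjamini-Hochberg over all 20719 genes. By that rule 10 of 10 members were higher and 0 lower, against a background of 17.0% of all genes higher and 15.6% lower. Because the members were chosen with earlier results of these data known, their counts here are a description. Set beside the shares of all genes, they are not an independent test of the set. The limma adjusted p of the 10 genes lay between 7.86e-07 (Trib3) and 0.00544 (Eif4ebp1). At least a 2-fold rise with an adjusted p below 0.05 was reached by 5 of the 10, Trib3, Atf5, Ddit3, Sesn2 and Atf3. The same rule held for 0.43% of all genes. In rank among the log2 changes of all genes Trib3 stood at 6, Atf5 at 19, Ddit3 at 21, Sesn2 at 54 and Atf3 at 60, while Eif4ebp1 stood at 1921. The rise was seen in 4 of 4 pairs for all 10 genes, as it was for 23.4% of all genes. For 9 of the 10 the lowest BIO array lay above the highest vehicle array, against 14.1% of all genes, and Ppp1r15a was the exception. In bulk RNA, more cells with a transcript and more of it per cell cannot be told apart.

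**Figure D1:**
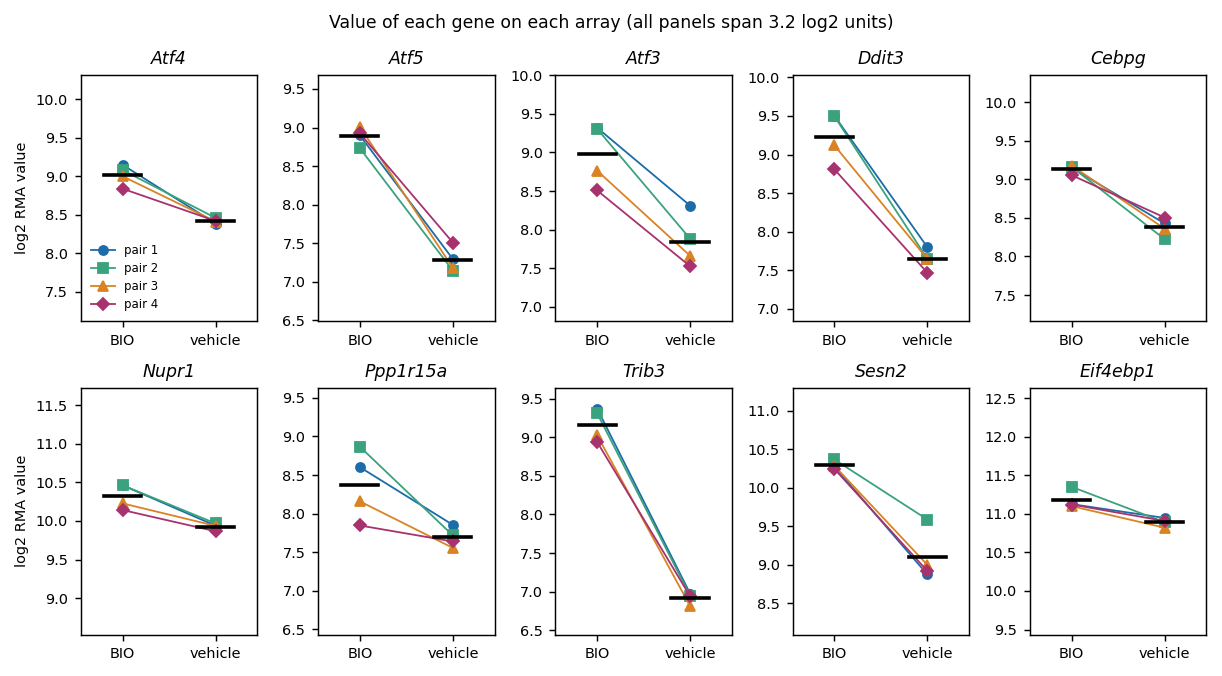
Each panel plots the log2 RMA value of 1 gene on the 8 arrays, BIO at left and vehicle at right, with a line joining the arrays of a pair and a black bar at each group mean; every panel spans the same 3.2 log2 units. All lines run downward to vehicle, steepest for Trib3, and the BIO and vehicle points overlap only in Ppp1r15a.

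The transcription factors at the head of the response rose unequally. Atf4, which encodes the main effector and is regulated largely at translation, read 9.15, 9.08, 9.00 and 8.84 log2 in the BIO samples of pairs 1 to 4, against 8.39, 8.46, 8.41 and 8.42 in vehicle. The groups did not overlap, and the vehicle arrays lay much closer together than the BIO arrays (SD 0.03 in vehicle and 0.13 in BIO, n = 4 each). The log2 change was 0.60 ± 0.06 (SE, limma adjusted p = 0.000148), a 1.51-fold rise. Atf5, which encodes a relative of ATF4 linked to mitochondrial stress, read 8.90, 8.73, 9.01 and 8.92 log2 in BIO, against 7.30, 7.14, 7.18 and 7.51 in vehicle. The lowest BIO array lay 1.22 log2 above the highest vehicle array. Its log2 change of 1.61 ± 0.07 (SE, limma adjusted p = 2.64e-06) was a 3.05-fold rise, and the 95% intervals of the changes, 1.46 to 1.76 for Atf5 and 0.46 to 0.73 for Atf4, did not overlap; the difference between these changes was not tested.

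Ddit3, the gene of CHOP, a factor linked to cell death under lasting stress, rose about as much as Atf5. It read 9.50, 9.50, 9.12 and 8.81 log2 in BIO, against 7.80, 7.65, 7.65 and 7.47 in vehicle. The groups lay 1.01 log2 apart at their nearest arrays, and pair 4 was lowest in both. The log2 change was 1.59 ± 0.08 (SE, limma adjusted p = 5.74e-06). Atf3, which encodes a stress-induced factor that can also repress its targets, read 9.32, 9.31, 8.76 and 8.51 log2 in BIO, against 8.31, 7.88, 7.66 and 7.52 in vehicle. Here the pairs also differed widely from each other: the nearest BIO and vehicle arrays, those of pairs 4 and 1, were only 0.20 log2 apart, although within each pair BIO was higher by 0.98 or more. With the pair as a block the log2 change was 1.13 ± 0.07 (SE, limma adjusted p = 1.95e-05).

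Cebpg, whose product pairs with ATF4 on C/EBP-ATF sites, read 9.15, 9.16, 9.18 and 9.05 log2 in BIO, against 8.43, 8.22, 8.36 and 8.50 in vehicle. The BIO arrays were close together (SD 0.06, n = 4) and all lay above vehicle. Its log2 change was 0.76 ± 0.07 (SE, limma adjusted p = 6.78e-05), a 1.69-fold rise. Nupr1, the gene of a small nuclear stress protein, read 10.46, 10.46, 10.23 and 10.14 log2 in BIO, against 9.94, 9.97, 9.94 and 9.87 in vehicle. The vehicle arrays lay close together (SD 0.04), while the BIO arrays of pairs 3 and 4 lay below those of pairs 1 and 2 (SD 0.16, n = 4 each), and the gap between the groups was narrow, 0.17 log2. The rise was 1.32-fold (log2 change 0.40 ± 0.06, SE, limma adjusted p = 0.00107).

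The feedback genes of the response rose by very different amounts. Trib3, whose product is a pseudokinase that binds ATF4 and restrains it, read 9.37, 9.31, 9.03 and 8.94 log2 in BIO, against 6.97, 6.95, 6.81 and 6.94 in vehicle. The groups were 1.97 log2 apart at their nearest arrays, the widest gap of the 10 genes. The 95% interval of its log2 change ran from 2.08 to 2.40. Ppp1r15a, the gene of GADD34, which brings protein phosphatase 1 to eIF2 and ends the response, read 8.60, 8.87, 8.16 and 7.85 log2 in BIO, against 7.85, 7.72, 7.56 and 7.64 in vehicle. The BIO array of pair 4 lay just below the vehicle array of pair 1, by 0.008 log2 at full precision, so the groups overlapped. The log2 change was 0.68 ± 0.13 (SE, limma adjusted p = 0.00376), with the widest interval of the 10 genes, 0.39 to 0.97. With the p-values of the authors' deposited table, from the authors' own paired test and here adjusted over the same genes, Ppp1r15a did not pass (adjusted p = 0.121).

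Both brakes on growth rose. Sesn2, the gene of a leucine sensor that restrains the growth kinase complex mTORC1, read 10.27, 10.37, 10.28 and 10.24 log2 in BIO, against 8.88, 9.59, 9.00 and 8.92 in vehicle. The BIO arrays nearly coincided (SD 0.05), while the vehicle array of pair 2 lay well above the other 3 (SD 0.33, n = 4 each). The log2 change was 1.20 ± 0.10 (SE, limma adjusted p = 4.88e-05), and by pair it was 1.40, 0.78, 1.28 and 1.32. Eif4ebp1, the gene of a protein that binds the cap-binding factor eIF4E and blocks translation when mTORC1 is inactive, read 11.13, 11.35, 11.10 and 11.12 log2 in BIO, against 10.95, 10.89, 10.82 and 10.91 in vehicle. The BIO array of pair 2 stood apart from the other 3, and the groups did not overlap. The rise was the smallest of the 10 genes, 1.22-fold (log2 change 0.28 ± 0.06, SE). Without pair 2 it was 0.22 (limma adjusted p = 0.0187), and with the p-values of the authors' deposited table, adjusted over the same genes, Eif4ebp1 did not pass (adjusted p = 0.0775).

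**Figure D2:**
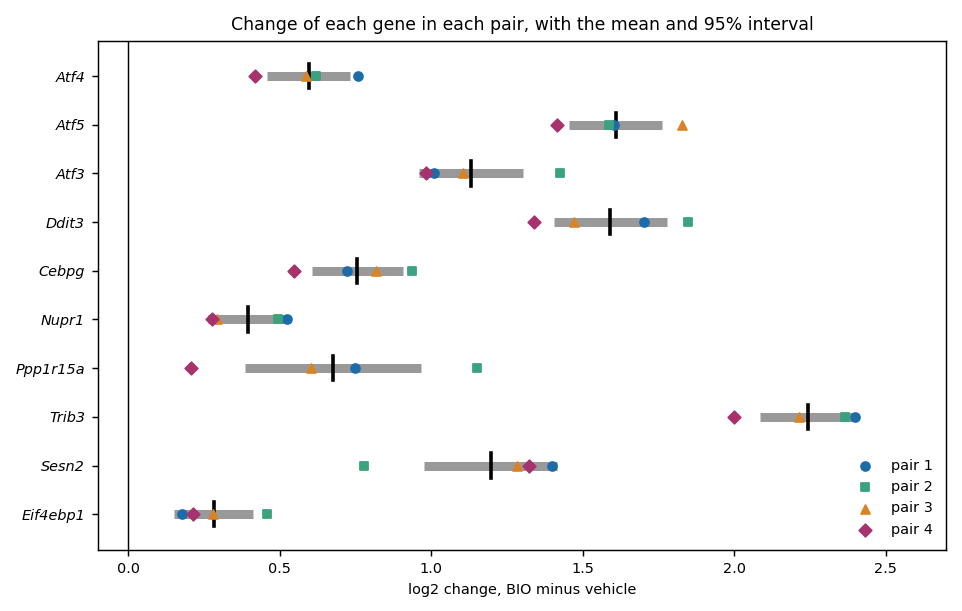
The x axis gives the log2 change, BIO minus vehicle, of each gene on the y axis, with 1 coloured marker per pair, a black line at the mean and a grey bar over its 95% interval from limma. Pair 4 gives the smallest change for 8 of the 10 genes, and no marker lies at or below 0.

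The size of the rise varied between pairs in a shared way. Pair 4 showed the smallest change in 8 of the 10 genes, all but Sesn2 and Eif4ebp1, against 33.8% of the 3531 genes that rose overall. The mean change of pairs 1 and 2 was above that of pairs 3 and 4 in 8 of the 10, all but Atf5 and Sesn2, against 56.1% of the genes that rose. The difference was widest for Ppp1r15a, which rose by 0.95 log2 over pairs 1 and 2 and by 0.41 over pairs 3 and 4. Ddit3 rose by 1.78 over pairs 1 and 2 and by 1.41 over pairs 3 and 4, and Nupr1 by 0.51 over pairs 1 and 2 and by 0.28 over pairs 3 and 4. In 7 of the 10 genes the BIO arrays of pairs 3 and 4 were the lowest 2 of their group, an order not counted over all genes. Pairs 1 and 2 also stand apart from pairs 3 and 4 over all genes, and the difference in response between them was not tested. All 10 genes passed within pairs 1 and 2 alone and within pairs 3 and 4 alone, where the spread of each gene is estimated largely from the other genes. For Ppp1r15a the limma adjusted p was 0.0002 in pairs 1 and 2 and 0.0325 in pairs 3 and 4.

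Relatives of the 10 genes did not move as a block with them. The list of 17 paralogues, all measured, held 5 genes that rose, 5 that fell and 7 that did not pass. Their median log2 change was -0.01. Over all genes 17.0% were higher and 15.6% lower. With the dimmest 50% of genes left out, 3347 of 10359 were higher and 2838 lower, and 5 of the 17 paralogues lay in that dimmer part. The paralogue counts lie above the shares over all genes and near those of the brighter part, which does not hold the whole list. All gene lists were chosen with earlier results of these data known and serve as description. Among the tribbles genes, Trib3 rose while Trib2, which encodes a pseudokinase that promotes the breakdown of C/EBPα, fell by 1.16 on the log2 scale (± 0.05, SE, limma adjusted p = 2.83e-06). Trib2 read 6.77, 6.55, 6.67 and 6.64 log2 in BIO, against 7.88, 7.63, 7.94 and 7.79 in vehicle, with no overlap between the groups. Trib1 fell by 0.61 (± 0.06, limma adjusted p = 0.00011). Among the C/EBP genes, Cebpg and Ddit3 rose, as did Cebpb (0.59 ± 0.11, limma adjusted p = 0.00349), another partner of ATF4, while Cebpa (-0.53 ± 0.10) and Cebpd (-2.25 ± 0.10, limma adjusted p = 3.86e-06) fell. Cebpd, an acute-phase and cytokine-induced factor, read 5.24, 5.34, 5.49 and 5.43 log2 in BIO, against 7.83, 7.17, 7.80 and 7.70 in vehicle. In BIO both Cebpa (mean 5.43 log2) and Cebpd (mean 5.37) lay below the array medians of 5.70 to 5.73.

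Atf7, another ATF gene, named after its value was seen, rose by 0.18 (limma adjusted p = 0.0125), a call lost within pairs 1 and 2 (0.0845) and within pairs 3 and 4 (0.117). In the sestrin family the paralogues of Sesn2 went their own ways. Sesn1, which p53 and FoxO factors are known to induce, was at 8.54 log2 in BIO and 8.55 in vehicle, a difference of -0.004 whose 95% interval ran from -0.12 to 0.11. Sesn3 fell by 0.35 on the log2 scale (± 0.06, SE, limma adjusted p = 0.00159). Of the other 4E-BP genes, Eif4ebp3 rose by 0.25 (± 0.04) and Eif4ebp2 did not pass (0.04, 95% interval -0.10 to 0.18). Ppp1r15b, the constitutive partner of protein phosphatase 1 on eIF2, rose by 0.35 (± 0.04, limma adjusted p = 0.000571), and its interval of 0.24 to 0.45 overlapped that of Ppp1r15a. Jdp2, the closest relative of Atf3, rose by 0.73 (± 0.05, limma adjusted p = 2.23e-05). Nupr1l, the relative of Nupr1, rose by 0.78 (± 0.05, limma adjusted p = 1.45e-05). With the p-values of the authors' deposited table, adjusted over the same genes, Cebpa (adjusted p = 0.126), Cebpb (0.114) and Sesn3 (0.0500085) did not pass, and Eif4ebp3 did not within pairs 1 and 2 (limma adjusted p = 0.0526). No test of the difference between relatives was run.

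**Figure D3:**
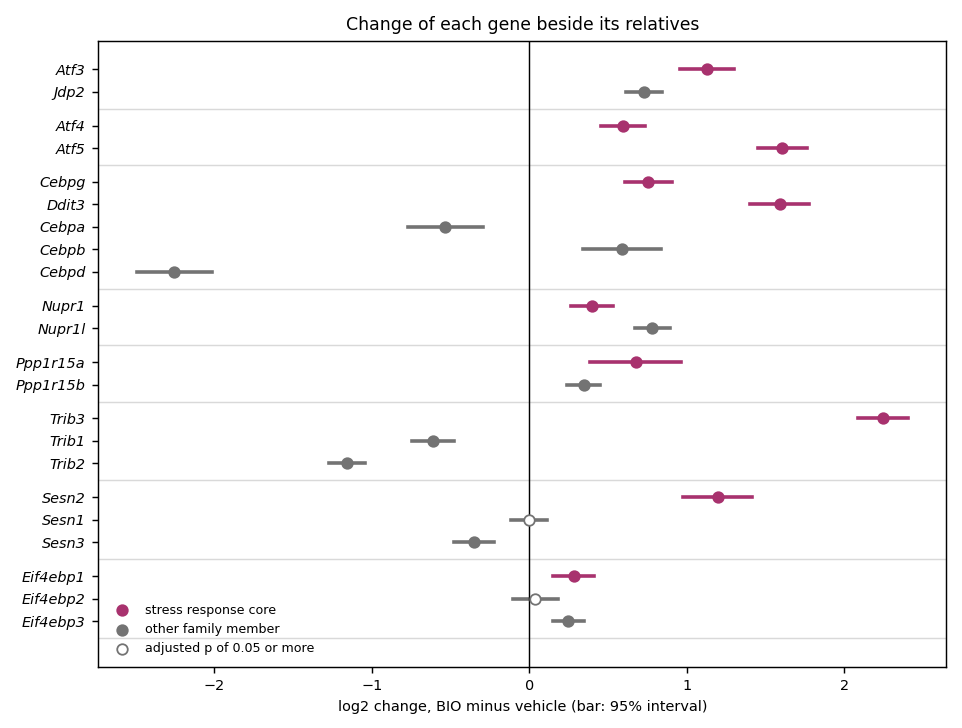
Points give the log2 change, BIO minus vehicle, and bars the 95% interval from limma for the stress response genes (purple) and their relatives (grey), grouped by family; open points have an adjusted p of 0.05 or more. Trib3 lies at 2.24 with Trib1 and Trib2 below 0, and Cebpg and Ddit3 lie above 0 with Cebpa and Cebpd below it.

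Upstream of ATF4, none of the 4 genes of the eIF2 kinases passed as higher in BIO. Eif2ak3, the gene of PERK, was at 8.46 ± 0.05 log2 in BIO and 8.45 ± 0.07 in vehicle (SD, n = 4 each), and Eif2ak4, the gene of GCN2, at 8.32 ± 0.05 in BIO and 8.33 ± 0.06 in vehicle. Neither passed (limma adjusted p = 0.952 and 0.889), and the 95% intervals of their log2 changes, -0.10 to 0.11 and -0.11 to 0.09, were narrow. Eif2ak1, the gene of HRI, was 0.12 log2 lower in BIO and did not pass (limma adjusted p = 0.0989), though it did with an intensity trend and robust prior (limma adjusted p = 0.0495) and with the dimmest 50% of genes left out (0.0454). Eif2ak2, the gene of PKR, which interferon induces, fell by 0.62 log2 (± 0.06, SE, limma adjusted p = 0.000134). Kinase activity was not measured. A list of 15 genes held the eIF2 kinases, subunits of eIF2 and of its exchange factor, and the regulators Ppp1r15b, Gcn1, Impact and Dnajc3. In it 7 rose, 1 fell and 7 did not pass, with a median log2 change of 0.13, against 17.0% of all genes higher. All 15 were in the brighter 50% of genes. With the dimmest 50% left out, 3347 of 10359 genes were higher. Of the 7 listed genes that rose, 3 were the regulators Ppp1r15b, Gcn1 and Impact. The number of listed genes that rose was 4 without the pair block and 3 within pairs 3 and 4. Impact, whose product restrains GCN2, rose most (log2 change 0.59 ± 0.05, limma adjusted p = 9.51e-05), followed by Eif2b3, a subunit of the exchange factor (0.37 ± 0.05), whose call was lost without the pair block (limma adjusted p = 0.0537).

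Downstream, the other target genes of ATF4 rose with the core. Of 31 listed and measured, 28 rose, 1 fell and 2 did not pass, against 17.0% of all genes higher. With the dimmest 50% of genes left out, 3347 of 10359 were higher, and 5 of the 31 lay in that dimmer part. The median log2 change of the 31 was 0.64, with a range from -0.19 to 2.53. After the cystine transporter gene Slc7a11, the rise was greatest for Cth, an enzyme that makes cysteine, which read 11.04, 11.23, 10.63 and 10.43 log2 in BIO, against 8.95, 8.95, 8.99 and 8.76 in vehicle. The groups were far apart, and as in Ddit3 the BIO arrays of pairs 3 and 4 were the lower ones. Its log2 change was 1.92 ± 0.10 (SE, limma adjusted p = 7.86e-06). Chac1, a glutathione-degrading enzyme, was next (1.57 ± 0.05), followed by Pycr1, an enzyme of proline synthesis (1.55 ± 0.07, limma adjusted p = 3.74e-06). Outside the naming rule and chosen after their values were seen, the 3 exceptions were Ddit4, the gene of the mTORC1 inhibitor REDD1, which fell by 0.19 log2 (limma adjusted p = 0.0328), Cbs, an enzyme of the transsulphuration pathway (-0.04, limma adjusted p = 0.606), and Fgf21, a stress hormone (0.03, limma adjusted p = 0.627). Fgf21 averaged 5.48 log2 in BIO and 5.45 in vehicle, below the array medians of 5.70 to 5.73, where a change may not be seen. The call of Ddit4 was lost without pair 1, 2 or 3, within pairs 1 and 2, within pairs 3 and 4 and without the pair block.

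Genes tied to CHOP in cell death changed little and in both directions. Of 7 measured, 2 rose, 3 fell and 2 did not pass, with a median log2 change of -0.02. Over all genes 17.0% were higher and 15.6% lower. With the dimmest 50% of genes left out, 3347 of 10359 were higher and 2838 lower, so the counts of so short a list say little. Tnfrsf10b, the gene of the death receptor DR5, rose by 0.36 (± 0.09, SE, limma adjusted p = 0.0165), and Ero1a, an oxidase of the endoplasmic reticulum, by 0.26 (± 0.08, limma adjusted p = 0.0419). Bbc3, the gene of the death protein PUMA, fell by 0.44 (± 0.05, limma adjusted p = 0.000258), and Bcl2l11, the gene of BIM, fell by 0.16 (± 0.05, limma adjusted p = 0.0492). Dapk3, a death-associated kinase gene named after its value was seen, fell by 0.16 as well (limma adjusted p = 0.0451). Among these, several calls did not hold: without the pair block the limma adjusted p was 0.274 for Tnfrsf10b and 0.299 for Bcl2l11, and that of Ero1a was 0.158 without pair 1, 0.152 without pair 2 and 0.0905 without pair 3. Tnfrsf10b was also lost without pair 1 (limma adjusted p = 0.0514), pair 3 (0.078) or pair 4 (0.068), and Bcl2l11 without any 1 of the 4 pairs (0.0521 to 0.16). Of the 3 genes that fell, only Bbc3 passed without the pair block and when any 1 pair was left out.

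The other arms of the unfolded protein response were read from 22 genes of the XBP1 and ATF6 branches. Of these, 11 rose, 0 fell and 11 missed the threshold, against 17.0% of all genes higher. All but 1 of the 22 were in the brighter 50% of genes. With the dimmest 50% left out, 3347 of 10359 genes were higher. Of the 22, 5 rose by the authors' test and 5 within pairs 3 and 4. The median log2 change of the 22 was 0.20, beside 0.64 for the other ATF4 targets and 0.94 for the 10 core genes. The difference between these lists was not tested. The largest change was that of Herpud1 (0.81 ± 0.07, SE, limma adjusted p = 6.33e-05), a gene of protein degradation in the endoplasmic reticulum that ATF4 is also known to induce. Hyou1, a chaperone gene of that organelle, was next (0.46 ± 0.09, limma adjusted p = 0.00409), and did not pass with the p-values of the authors' deposited table (adjusted p = 0.111). Sdf2l1, another gene of that organelle, rose by 0.37 (± 0.05, limma adjusted p = 0.000535), a call lost without the pair block (limma adjusted p = 0.062). Xbp1, Hspa5 and Dnajb9 had log2 changes of 0.36, 0.14 and 0.19. Hspa5, which encodes the chaperone BiP, did not pass (limma adjusted p = 0.0915) but did after cyclic loess normalization (0.0421), with an intensity trend and robust prior (0.0214) and with the dimmest 50% of genes left out (0.0485). Splicing of Xbp1, by which that branch is switched on, was not assessed.

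**Figure D4:**
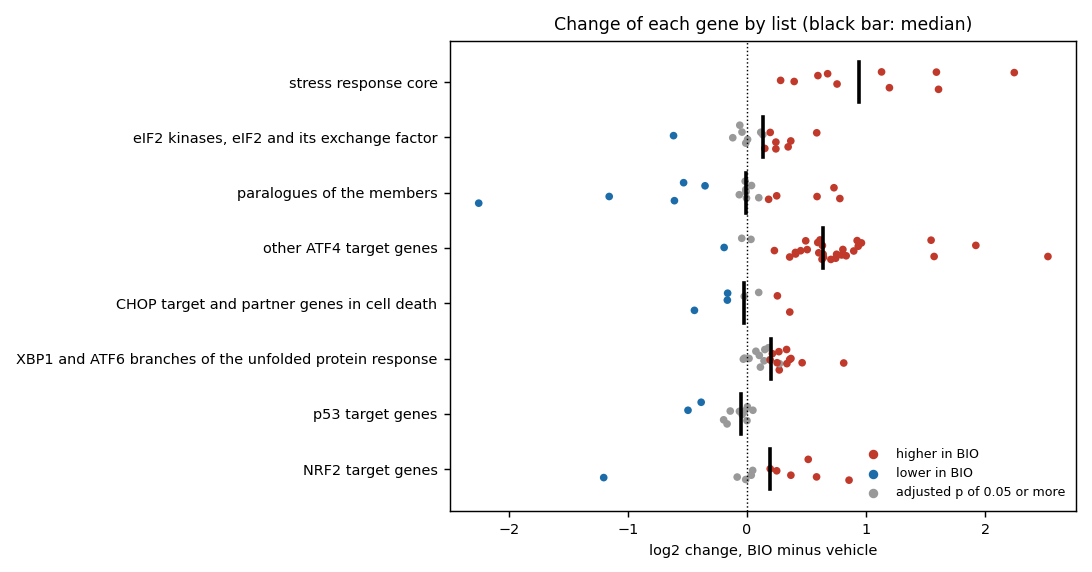
Each point is the log2 change, BIO minus vehicle, of 1 gene in the list named on the y axis, coloured by direction where the limma adjusted p was below 0.05, and black bars are medians; vertical scatter has no meaning. The core and the other ATF4 targets lie mostly right of 0 (medians 0.94 and 0.64), while the p53 targets and the CHOP-linked death genes straddle it.

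Since Sesn2, Atf3 and Trib3 also answer to other stress pathways, targets of p53 and NRF2 were read beside them. Whether either pathway has a part in the rise of the core genes was not tested. Each gene was placed in 1 list only, so core genes and genes of the other lists are not in the counts below, whatever else induces them. Of 12 p53 target genes, 0 rose and 2 fell by limma, against 17.0% of all genes higher and 15.6% lower. All 12 were in the brighter 50% of genes. With the dimmest 50% left out, 3347 of 10359 genes were higher and 2838 lower. The median log2 change of the 12 was -0.05. The number of p53 targets that fell was 4 without pair 3 and within pairs 1 and 2. The 2 were Trp53inp1, an inducer of autophagy and cell death (-0.50 ± 0.05, SE, limma adjusted p = 0.000186), and Btg2, an antiproliferative gene (-0.38 ± 0.05). Of 11 NRF2 target genes, which answer to oxidants, 6 rose, 1 fell and 4 did not pass, with a median of 0.20. The shares to set beside this are again 17.0% of all genes higher and 15.6% lower. All but 1 of the 11 were in the brighter 50% of genes, where 3347 of 10359 were higher and 2838 lower. Nqo1, a quinone reductase that the aryl hydrocarbon receptor also induces, rose by 0.86 (± 0.07, limma adjusted p = 4.37e-05), Srxn1 by 0.58 (± 0.05) and Gclc by 0.51 (± 0.05), while Osgin1, an oxidative stress and growth inhibitor gene, fell by 1.20 (± 0.04, limma adjusted p = 1.5e-06). Nqo1 averaged 6.39 log2 in BIO and 5.53 in vehicle, the vehicle mean lying below the array medians of 5.70 to 5.73.

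Likeness to Ddit3 and to Atf4 was measured by Pearson correlation over the 8 arrays. The 5 genes nearest to Ddit3 outside the core were Ndc1 (0.9987), Nars2 (0.9967), Cc2d1b (0.996), Cth (0.9958) and Gak (0.9947). Those nearest to Atf4 were B4galnt2 (0.9958), Alg1 (0.9943), Eprs (0.9928), Cc2d1b (0.9927) and Bcap29 (0.9924). Nars2 and Eprs encode tRNA synthetases. The 8 points share the split between BIO and vehicle, which makes a high correlation common among genes that rose, and the correlation does not measure the size of the change: Cc2d1b rose by only 0.30 log2.

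The authors' deposited table also holds results of another experiment, headed as 3 Wnt against 4 SF1 samples, which the sources used here do not describe further. In the authors' deposited table the ratio of WNT over SF1 was below 1 for 8 of the 10 core genes, against 45.2% of all genes. An unadjusted p under 0.05 was reached by 1 of them, Cebpg (ratio 0.686, p = 0.0464 in the authors' deposited table), against 12.9% of all genes in either direction and 6.12% lower in WNT. For Sesn2 the authors' deposited table gives a ratio of 0.586 (p = 0.0671), for Nupr1 0.621 (p = 0.0788) and for Ppp1r15a 0.623 (p = 0.0633). Trib3 (0.929) and Ddit3 (1.02) were near 1 in the authors' deposited table. No spread over samples can be given for these ratios.

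Across the series, array medians lay between 5.70 and 5.73 log2, and 32.7% of all genes passed. The label of the cells was checked against marker genes. Of the 10 adrenocortical markers, Star, Cyp11a1, Mc2r, Nr5a1, Fdx1 and Scarb1 averaged above the array medians in both groups. Cyp21a1 averaged 4.51 log2 in BIO and 4.60 in vehicle, Cyp11b2 4.11 in BIO and 4.22 in vehicle, and Hsd3b1 4.97 in BIO and 5.68 in vehicle, all below those medians. Cyp11b1 averaged 5.41 log2 in BIO, below them, and 6.25 in vehicle, above them. With BIO, 8 of the 10 adrenocortical markers fell and 0 rose, and their summed linear value was 4000 to 4982 in BIO arrays and 6507 to 8450 in vehicle arrays. What part this shift has in the rise of the stress genes was not tested. Of the markers of other cell types, 0 of 6 for the adrenal medulla and 0 of 5 for endothelium passed in limma. Among 5 blood and macrophage markers Cd68 fell (-0.45 ± 0.05, SE, limma adjusted p = 0.00016), and among 6 fibroblast markers Col1a1 fell (-0.23 ± 0.06). Cd68 averaged 7.25 log2 in BIO and 7.70 in vehicle, and Col1a1 5.96 in BIO and 6.18 in vehicle, above the array medians. The other markers of these lists averaged below those medians in both groups. The summed linear value of the medulla markers was 166 to 180 in BIO and 172 to 179 in vehicle, and that of the endothelial markers 106 to 125 in BIO and 110 to 119 in vehicle. Blood and macrophage markers summed to 215 to 242 in BIO and 270 to 309 in vehicle, and fibroblast markers to 181 to 200 in BIO and 187 to 213 in vehicle.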

How the data were processed

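Total RNA (250 ng per sample) was labelled and hybridised to 8 arrays, 4 BIO and 4 vehicle. The authors deposited log2 values made with oligo by RMA (background correction, quantile normalization, summary per probe set), per the file headers and the submitters' processing notes. RMA compresses low signals, so fold changes of dim genes are understated, and no detection call was used. The authors' deposited table also holds unadjusted p-values of a paired t-test and fold ratios of BIO over vehicle and of another experiment, per the file headers.

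Members were matched by symbol, and other symbols updated through RefSeq IDs (20480 of 20719 genes). Where a gene had several probe sets, the one with the highest mean was used. BIO was compared with vehicle in limma 3.58.1 (R 4.3.3; lmFit and eBayes, two-sided) with the pair from the titles as a block, and Benjamini-Hochberg adjustment at 0.05 over all genes. In 4 pairs an exact sign-flip test of 1 gene cannot go below p = 0.125, so calls rest on a spread shared across genes. Same-numbered arrays deviated together from their group means (correlations across genes of 0.446, 0.578, 0.385 and 0.617), but vehicle 3 correlated with BIO 4 at 0.392 and all correlations between pairs 1 and 2 and pairs 3 and 4 were negative (-0.504 to -0.214). The procedure was checked on simulated data. The number of arrays limits the precision.

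The 10 members, the 12 lists and the alternatives were chosen with earlier results of these data known. All members are named, with up to 4 genes per list of largest change past the threshold, the 4 eIF2 kinase genes, Hspa5, Xbp1, Dnajb9, and the 5 genes most correlated with Ddit3 or with Atf4 outside predicted gene models. Trib1, Cebpa, Cebpb, Sesn1, Sesn3, Eif4ebp2, Eif4ebp3, Atf7, Gcn1, Dnajc3, Dapk3, Ddit4, Cbs, Fgf21 and the adrenocortical markers Nr5a1, Cyp21a1, Cyp11b2, Hsd3b1, Fdx1 and Scarb1 lie outside that rule and were named after their values were seen. No batch was tested, since the labels name neither strip nor scan. A plotting sheet was not used.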

Additional observations from a re-analysis of the deposited data

Results flagged for a closer look

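Among the named genes, 1 array stood far from the other 3 of its group in 2 of 94 groups checked, fewer than the roughly 5% of groups in which chance alone gives such a spacing. Eif4ebp1 in BIO read 11.35 log2 in pair 2, with the other 3 arrays at 11.10 to 11.13. Cth in vehicle read 8.76 log2 in pair 4, with the other 3 at 8.95 to 8.99. Neither array changed a call when its pair was left out.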

How the results depend on the processing

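The log2 changes of the core and other named pathway genes and the counts of the lists were recomputed under 15 alternatives; the promoter matches, the correlations, the marker sums and the authors' WNT over SF1 ratios were not. All 10 core genes stayed higher in BIO in every one, with a median log2 change of 0.86 to 1.02, and passed in every one except the authors' deposited paired t-test, where Ppp1r15a (log2 change 0.677, adjusted p = 0.121) and Eif4ebp1 (0.282, adjusted p = 0.0775) were lost and 8 of 10 were higher. Single log2 changes moved most for Ppp1r15a, from 0.41 in pairs 3 and 4 to 0.95 in pairs 1 and 2. The fit without the replicate block called 10 core genes higher, and left every core call in place. Over all genes it called 2694 higher and 2329 lower, and the authors' test 2057 and 1890, against 3531 and 3236. Cyclic loess gave 3205 higher and 3496 lower.

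Counts of the lists moved more. Of the eIF2 genes, 4 were higher without the replicate block and 3 in pairs 3 and 4, against 7, and 2 were lower with an intensity trend and with the dimmest 50% left out, against 1. Paralogues higher were 3 in pairs 1 and 2, and lower 3 by the authors' test, against 5 each. The 1 lower ATF4 target was 0 without the replicate block, by the authors' test and in pairs 1 and 2 or 3 and 4 alone, and 0 to 1 leaving out a pair. CHOP-linked genes higher, against 2, were 1 without the replicate block and in pairs 1 and 2 or 3 and 4 alone, 0 by the authors' test and 0 to 2 leaving out a pair; those lower, against 3, were 1 in each of these and when any pair was left out. XBP1 and ATF6 genes higher were 5 by the authors' test and 5 in pairs 3 and 4, against 11. Lower p53 targets were 4 in pairs 1 and 2 and 2 to 4 leaving out a pair (4 without pair 3), against 2. The cause of these shifts was not tested.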
